A study of Homo sapiens with 6 samples.

Results

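The genes described here are 10 genes of the NF-kB response, taken by symbol from the 25369 genes counted in each sample: the NF-kB subunit genes NFKB2 and RELB, the inhibitor and survival genes NFKBIA, TNFAIP3 and BIRC3, the chemokine genes CXCL1 and CCL2, the cytokine genes IL6 and LIF, and the adhesion molecule gene ICAM1. They were measured by RNA-Seq of Caki2, a clear cell renal cell carcinoma (ccRCC) line that lacks PBRM1 protein. PBRM1 is a subunit of PBAF, a SWI/SNF chromatin remodeling complex, and is often lost in ccRCC. In 3 samples the cells carried an empty doxycycline-inducible lentiviral vector (Caki2+Vector), and in 3 they carried the same kind of vector with full-length PBRM1 (Caki2+PBRM1). Both groups received doxycycline at 2 µg/ml, and the labels name no added cytokine or other NF-kB stimulus. Each group is 1 drug-selected line, made by infection, so a difference between the lines other than PBRM1 cannot be told apart from PBRM1 itself. The replicates are lettered A, B and C. The study calls them biological replicates, but neither it nor the labels say whether they were separate cultures, so the p-values measure the spread between these samples, which may be partly technical.

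NF-kB is a family of transcription factor dimers held in the cytoplasm by IkB proteins. In the canonical pathway, signals from TNF, IL-1 or Toll-like receptors activate the IKK complex, IkB is degraded, and dimers containing RELA enter the nucleus. In the non-canonical pathway, the kinase encoded by MAP3K14 lets the NFKB2 precursor be processed, and the product pairs with RELB. Both pathways induce their own brakes together with chemokines and cytokines that recruit and instruct leukocytes, and renal tubular epithelium is a known source of such chemokines, CCL2 among them.

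Between 7312955 and 10835355 reads were counted on genes in each library. PBRM1, the gene that was introduced, had normalized counts of 195.0, 182.3 and 182.2 in Caki2+Vector A, B and C and of 2431.7, 2520.7 and 2682.4 in Caki2+PBRM1 A, B and C (difference on the log2(normalized count + 1) scale 3.76, SE 0.056). The labels class Caki2+Vector as without PBRM1 expression, but its transcript was counted there, and the counts do not separate the endogenous transcript from the construct. Caki2+Vector A stood apart from its group. Chi-square per degree of freedom, which is near 1 when replicates differ by counting noise alone, was 3.09 and 2.84 between Caki2+Vector A and the other replicates, 1.34 between Caki2+Vector B and C, and 1.19 to 1.22 among Caki2+PBRM1 samples. For genes named below whose call turns on this sample, results without it are therefore also given. Of the renal epithelial markers, PAX8 was at 1887.7 to 2190.0 and KRT8 at 7228.0 to 8811.9, while CDH1 was at 0.0 to 1.9. The leukocyte markers CD3E, CD163 and TYROBP were at 0.0 in every sample. PTPRC was at 3.8 to 5.7 across Caki2+Vector (14 reads) and at 0.0 to 1.1 across Caki2+PBRM1 (2 reads). CD68 was at 1991.8 to 2139.9 and at 1897.6 to 1935.0 in these groups. The summed level of all 10 leukocyte markers, nearly all of it CD68, ran from 2021.2 to 2159.7 across Caki2+Vector and from 1939.6 to 1969.7 across Caki2+PBRM1. LAPTM5, another of them, was at 9.4 to 14.4 and at 20.4 to 26.0 in these groups (limma adjusted p = 0.00892, or 0.053 without Caki2+PBRM1 C and 0.0708 under DESeq2). The 6 endothelial markers summed to at most 8.0 and the 6 fibroblast markers to 164.2 to 183.1. The part of such cells in the results was not tested, beyond these low levels of the defining leukocyte and endothelial genes.

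To show what these genes share in sequence, the 250 bases before the RefSeq transcript start (GRCh38.p14) were searched on both strands for the kB consensus, the 10-base motif that NF-kB dimers bind. A window was at hand for 7 of the 10 genes, and 6 of them (NFKBIA, NFKB2, TNFAIP3, BIRC3, CXCL1 and IL6) held a match, against 8.19% of the 9825 tested genes with a window and 6.28% of all 27305 genes with one. The windows of 5 of these genes are printed on the strand of the gene, ending at the base before the start, with the matches in capitals. In CXCL1 a pair of matches on opposite strands overlap, shifted by 1 base. The genes shown include 2 that rose in Caki2+PBRM1 (TNFAIP3 and CXCL1) and 3 that did not pass the test (IL6, NFKBIA and BIRC3), so a match was present on both sides of the threshold.
TNFAIP3 (chr6:137867009-137867258, GRCh38.p14, plus strand): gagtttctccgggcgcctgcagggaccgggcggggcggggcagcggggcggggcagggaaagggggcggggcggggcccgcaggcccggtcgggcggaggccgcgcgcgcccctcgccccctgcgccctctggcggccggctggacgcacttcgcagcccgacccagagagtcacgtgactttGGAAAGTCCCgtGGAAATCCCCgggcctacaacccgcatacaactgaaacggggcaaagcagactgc
CXCL1 (chr4:73869143-73869392, GRCh38.p14, plus strand): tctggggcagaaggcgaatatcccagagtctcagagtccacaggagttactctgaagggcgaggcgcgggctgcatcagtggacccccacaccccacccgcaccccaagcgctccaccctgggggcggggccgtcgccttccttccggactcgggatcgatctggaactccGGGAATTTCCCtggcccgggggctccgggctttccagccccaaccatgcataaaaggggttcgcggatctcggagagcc
IL6 (chr7:22726950-22727199, GRCh38.p14, plus strand): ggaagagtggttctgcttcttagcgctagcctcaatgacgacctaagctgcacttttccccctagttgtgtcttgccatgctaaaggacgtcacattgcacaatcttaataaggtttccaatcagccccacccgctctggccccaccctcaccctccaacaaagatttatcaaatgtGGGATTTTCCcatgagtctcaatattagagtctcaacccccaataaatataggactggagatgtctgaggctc
NFKBIA (chr14:35404750-35404999, GRCh38.p14, minus strand): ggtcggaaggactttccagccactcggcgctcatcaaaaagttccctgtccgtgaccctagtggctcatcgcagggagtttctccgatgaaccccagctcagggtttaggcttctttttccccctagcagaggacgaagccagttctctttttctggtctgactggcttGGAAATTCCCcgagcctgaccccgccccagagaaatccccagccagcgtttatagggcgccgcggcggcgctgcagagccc
BIRC3 (chr11:102317234-102317483, GRCh38.p14, plus strand): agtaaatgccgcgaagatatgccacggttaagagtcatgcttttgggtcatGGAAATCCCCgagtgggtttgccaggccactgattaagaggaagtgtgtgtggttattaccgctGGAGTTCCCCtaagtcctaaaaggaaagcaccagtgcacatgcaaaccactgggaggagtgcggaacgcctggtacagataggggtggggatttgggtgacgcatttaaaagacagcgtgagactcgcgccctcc
The matches began 67 and 55 bases before the start in TNFAIP3, 79 and 78 in CXCL1, 73 in IL6, 81 in NFKBIA, and 199 and 135 in BIRC3. NFKB2 has 3 annotated starts, and the windows of 2 of them held matches. No match to this consensus was found in the window of ICAM1, and sites that depart from the consensus were not searched for in any gene. A match is a description of the letters, and binding was not measured. The genes were picked as genes of the NF-kB response, so the share of them with a match is no independent test.

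The question for these genes was whether their transcripts differ between Caki2+PBRM1 and Caki2+Vector. Of the 10, 9 passed the filter on low counts (3 or more samples at a normalized count of 10 or above), and ICAM1 did not. TNFAIP3, LIF, CCL2 and CXCL1 rose in Caki2+PBRM1, by 14.2%, 15.3%, 33.9% and 67.4% of their mean normalized count, and no gene of the 9 was called lower. The other 5, IL6, RELB, NFKB2, NFKBIA and BIRC3, did not pass the threshold. Among the 9, 44.4% were called higher, where 16.2% of all 13303 tested genes were called higher, 13.0% lower and 29.2% in either direction (limma on log2(normalized count + 1), adjusted p under 0.05). Every Caki2+PBRM1 sample lay above every Caki2+Vector sample in 5 genes (55.6%), the 4 called ones and IL6, and the reverse held for none. Over all tested genes these shares were 22.1% and 19.6%. The median log2 fold change of the 9 was 0.19, beside -0.004 over all tested genes, and the values ran from -0.07 to 0.73. The 10 genes were chosen with earlier results of these data known. These shares and this median therefore do not test whether the set as a whole rose. The calls rested in part on Caki2+PBRM1 C: without it LIF alone of the 9 was called, beside 1649 of all 13303 tested genes called higher. In that fit the share called higher was thus no larger among the 9 than over all genes. Without Caki2+Vector A, 4 genes were called, TNFAIP3, LIF, CCL2 and IL6 in place of CXCL1, beside 2252 of all genes called higher. edgeR's quasi-likelihood test on the recovered reads called the same 4 genes as limma. Over all 13303 genes it called 30.1% in either direction and 2185 genes higher. DESeq2 called TNFAIP3 and LIF, beside 19.2% of all genes in either direction and 1496 genes higher. A transcript level in bulk RNA does not tell fewer expressing cells from less RNA per cell.

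**Figure D1:**
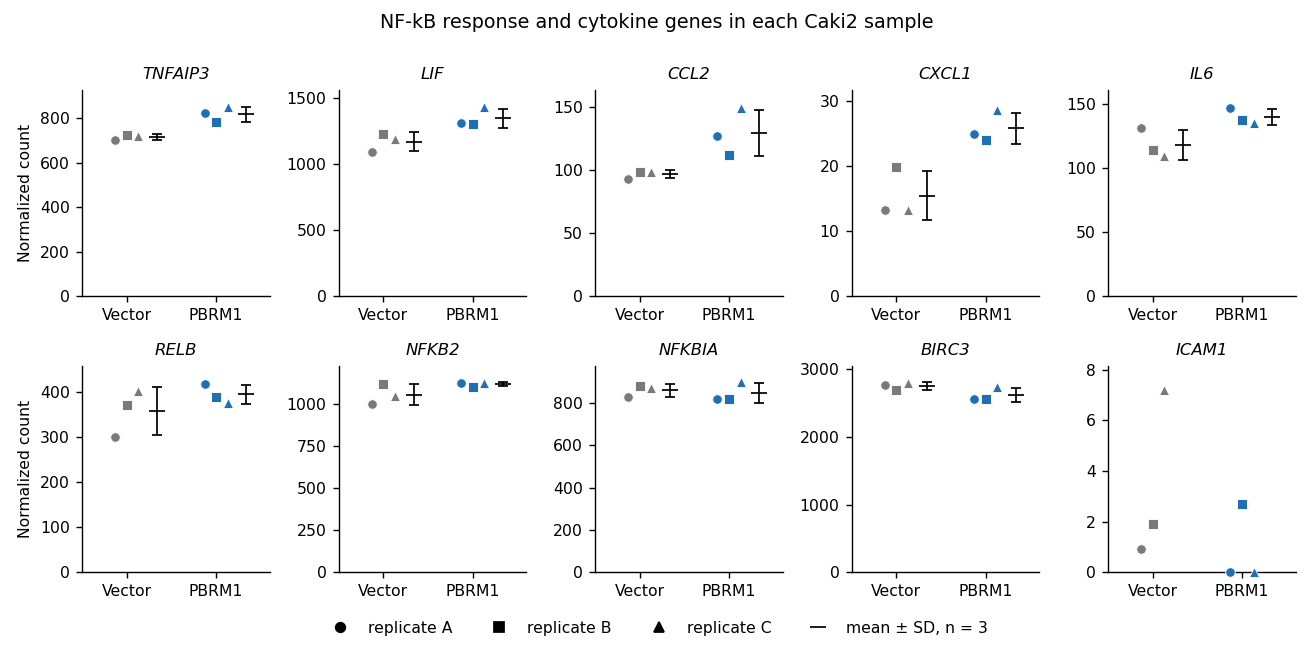
Normalized count (linear axis from 0) of each of the 10 genes in the 3 Caki2+Vector samples (grey) and the 3 Caki2+PBRM1 samples (blue), with replicate letters as symbols and the mean ± SD (n = 3) beside the points, except for ICAM1, where only the samples are shown. The groups are separate for TNFAIP3, LIF, CCL2, CXCL1 and IL6 and overlap for RELB, NFKB2, NFKBIA, BIRC3 and ICAM1.

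Among the inhibitor and survival genes, TNFAIP3 rose, while NFKBIA and BIRC3 did not pass the test. TNFAIP3 encodes A20, a ubiquitin-editing enzyme that shuts off signaling to IKK (chromosome 6, 138188351 to 138204451, plus strand, in GRCh37 as for all genes here). Its normalized counts were 702.4, 725.6 and 720.3 in Caki2+Vector A, B and C and 821.0, 783.1 and 850.2 in Caki2+PBRM1 A, B and C. The lowest Caki2+PBRM1 sample was thus above the highest Caki2+Vector sample, and the spread within Caki2+Vector was small (SD 12.1). The log2 fold change was 0.19 (SE 0.053, 95% interval 0.08 to 0.30, limma adjusted p = 0.00671; exact permutation p = 0.1, which is the smallest that 3 samples per group can give). It was 0.18 without Caki2+Vector A (adjusted p = 0.00523) and 0.16 without Caki2+PBRM1 C, where the call was lost (adjusted p = 0.065).

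NFKBIA encodes IkBa, the inhibitor that holds RELA dimers in the cytoplasm and is resynthesized within a response (chromosome 14, 35870285 to 35873955, minus strand). It was at 826.5, 882.4 and 872.5 in Caki2+Vector and at 821.0, 821.3 and 899.7 in Caki2+PBRM1. The groups overlapped, and 2 of the 3 Caki2+PBRM1 samples were below all of Caki2+Vector while the third was above. The log2 fold change was -0.02 with a 95% interval from -0.13 to 0.09 (limma adjusted p = 0.79), and -0.05 without Caki2+Vector A (adjusted p = 0.475). BIRC3 encodes cIAP2, a ubiquitin ligase of the TNF receptor complex that protects cells from death (chromosome 11, 102188215 to 102210134, plus strand). Its counts, 2771.9, 2692.6 and 2805.8 in Caki2+Vector and 2568.2, 2564.3 and 2737.8 in Caki2+PBRM1, gave a log2 fold change of -0.07 (SE 0.040, interval -0.15 to 0.01, limma adjusted p = 0.183). The overlap of the groups came from Caki2+PBRM1 C, which was above Caki2+Vector B.

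For the subunits of the non-canonical pathway, neither gene passed the test. RELB (chromosome 19, 45504719 to 45541450, plus strand) was at 300.1, 372.2 and 402.7 in Caki2+Vector and at 419.2, 390.2 and 376.8 in Caki2+PBRM1. The lowest value was that of Caki2+Vector A, and the other samples of the 2 groups overlapped. Its log2 fold change was 0.15 (SE 0.086, limma adjusted p = 0.2), it shrank to 0.03 without Caki2+Vector A (adjusted p = 0.794), and it passed the threshold, at 0.24, without Caki2+Vector C (adjusted p = 0.0359). NFKB2 (chromosome 10, 104153867 to 104162281, plus strand) was at 996.9, 1118.6 and 1046.3 in Caki2+Vector and at 1123.3, 1101.3 and 1122.1 in Caki2+PBRM1. Caki2+Vector B lay within the range of Caki2+PBRM1, and the log2 fold change was 0.08 (interval -0.02 to 0.18, limma adjusted p = 0.219). It was 0.04 without Caki2+Vector A (adjusted p = 0.501) and 0.13 without Caki2+Vector B (adjusted p = 0.0707).

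Of the canonical subunit genes, NFKB1 fell, and RELA and REL did not pass the test. NFKB1, whose precursor yields the DNA-binding partner of RELA, was at 643.7, 751.1 and 733.5 in Caki2+Vector and at 628.2, 633.7 and 632.8 in Caki2+PBRM1. It passed the threshold as lower (log2 fold change -0.16, limma adjusted p = 0.0369), and Caki2+Vector A, its lowest Caki2+Vector sample, was 10 counts above the highest Caki2+PBRM1 sample. Without that sample the value was -0.23 (adjusted p = 0.000407), and the call was lost when any one of the other 5 samples was left out (adjusted p = 0.095 to 0.175) and under DESeq2 (adjusted p = 0.11). RELA, the main activating subunit, was at 528.3 to 632.8 in Caki2+Vector and at 621.9 to 647.7 in Caki2+PBRM1, with a log2 fold change of 0.14 (adjusted p = 0.0926). It was 0.07 without Caki2+Vector A (adjusted p = 0.341) and passed the threshold, at 0.20, without Caki2+Vector C (adjusted p = 0.0193). REL ranged from 263.2 to 282.9 in Caki2+Vector and from 224.9 to 271.9 in Caki2+PBRM1, with a log2 fold change of -0.14 (adjusted p = 0.227).

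**Figure D2:**
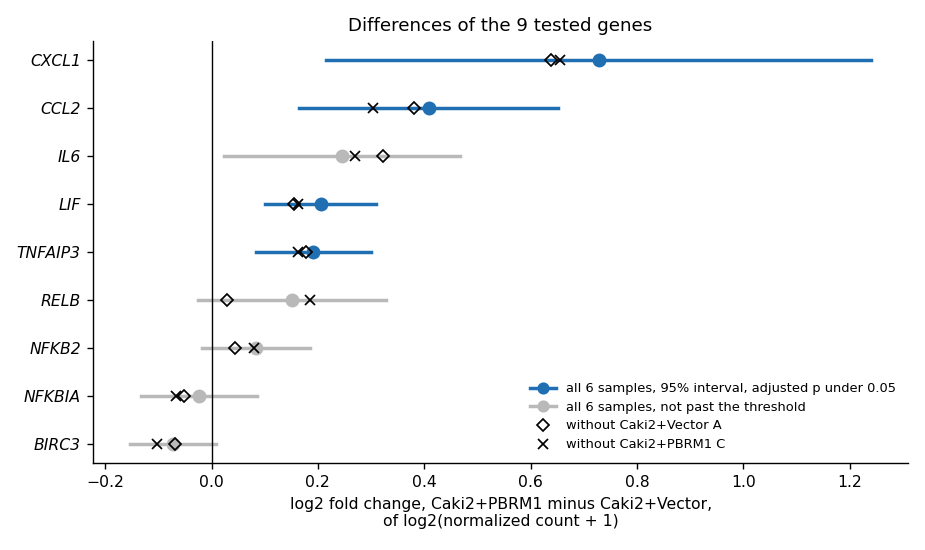
Log2 fold change (Caki2+PBRM1 minus Caki2+Vector, on the log2(normalized count + 1) scale) of the 9 tested genes, with the 95% interval of the limma fit over all 6 samples as a line, blue where the adjusted p was under 0.05 and grey otherwise. Open diamonds and crosses give the value without Caki2+Vector A and without Caki2+PBRM1 C, and RELB moves most without Caki2+Vector A, from 0.15 to 0.03.

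Both chemokine genes rose in the fit over all 6 samples. CCL2 encodes the monocyte attractant MCP-1 (chromosome 17, 32582293 to 32584227, plus strand). Its normalized counts were 92.8, 98.3 and 98.3 in Caki2+Vector and 126.7, 112.0 and 148.6 in Caki2+PBRM1. The 3 Caki2+Vector values were within 6 counts of each other, and the spread of Caki2+PBRM1 was wider (SD 18.4 against 3.2). The log2 fold change was 0.41 (SE 0.119, interval 0.16 to 0.65, limma adjusted p = 0.00986; exact permutation p = 0.1). It was 0.38 without Caki2+Vector A (adjusted p = 0.0149), and the call was lost without Caki2+PBRM1 C (0.30, adjusted p = 0.114) and under DESeq2 (0.42, adjusted p = 0.0523).

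CXCL1 encodes a neutrophil attractant that signals through CXCR2 (chromosome 4, 74735110 to 74737025, plus strand). It was at 13.3, 19.8 and 13.2 in Caki2+Vector and at 24.9, 24.0 and 28.5 in Caki2+PBRM1, from 46 and 84 reads per group. The groups did not overlap (exact permutation p = 0.1), and at 0.73 (SE 0.251, interval 0.22 to 1.24, limma adjusted p = 0.0284) its log2 fold change was the largest and the least precise of the 9. The call held without Caki2+Vector B (adjusted p = 0.0154). It was lost without any one of the other 5 samples, with values of 0.63 to 0.78 (adjusted p = 0.0569 to 0.123), under quantile normalization (0.64, adjusted p = 0.0513) and under DESeq2 (adjusted p = 0.166). CXCL1 has near-identical paralogs between which reads can be split, so its level is uncertain. Of these, CXCL2 was at 6.6, 6.6 and 15.6 in Caki2+Vector and at 6.5, 7.1 and 10.9 in Caki2+PBRM1, and CXCL3 was at 1.9 to 5.0 over the 6 samples. Both were below the filter. CXCL8, which shares the CXCR2 receptor, was at 42.6, 47.2 and 52.7 in Caki2+Vector and at 62.8, 55.1 and 57.9 in Caki2+PBRM1. Its groups did not overlap, but it did not pass the test (log2 fold change 0.30, adjusted p = 0.164).

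Of the cytokine genes, LIF rose and IL6 did not pass the test. LIF encodes a member of the IL-6 family that signals through LIFR and IL6ST (chromosome 22, 30636442 to 30642748, minus strand). It was at 1088.7, 1224.4 and 1186.6 in Caki2+Vector and at 1308.5, 1298.6 and 1426.8 in Caki2+PBRM1. Every Caki2+PBRM1 sample was higher than every Caki2+Vector sample, with a log2 fold change of 0.205 (SE 0.051, interval 0.10 to 0.31, limma adjusted p = 0.00267; exact permutation p = 0.1). LIF was called in every fit run, with an adjusted p of 0.0481 at the weakest, without Caki2+PBRM1 C.

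IL6, the cytokine that drives the acute phase response (chromosome 7, 22765503 to 22771621, plus strand), was at 131.6, 114.3 and 109.1 in Caki2+Vector and at 147.3, 137.8 and 135.1 in Caki2+PBRM1. The groups were separate, though Caki2+Vector A came within 4 counts of Caki2+PBRM1 C. Over all 6 samples the log2 fold change was 0.245 (SE 0.109, limma adjusted p = 0.0908; exact permutation p = 0.1), and without Caki2+Vector A it was 0.32 and passed the threshold (adjusted p = 0.0264). An exon of IL6 shares 46 bases with STEAP1B on the opposite strand, and antisense RNAs overlap exons of IL6, LIF, TNFAIP3, BIRC3 and ICAM1. The counting is not stated to have used strand, so reads of such pairs cannot be told apart.

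ICAM1, the leukocyte adhesion molecule often used as a readout of NF-kB in epithelium (chromosome 19, 10381769 to 10397291, plus strand), was close to undetected. Its counts were 1, 2 and 6 reads in Caki2+Vector and 0, 3 and 0 reads in Caki2+PBRM1. With 9 and 3 reads in all, a difference was not detectable at this depth (adjusted p = 0.11 in the limma fit with no filter on low counts), and no fold change is given. VCAM1 (1.9 to 5.9) and SELE (0.0 in every sample), the related endothelial adhesion molecules, were as low.

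Levels of different genes were compared per kilobase of exon. In Caki2+Vector the mean normalized count per kilobase was 552 for NFKBIA, 401 for BIRC3, 350.0 for NFKB2, 301 for LIF, 159 for RELB, 154 for TNFAIP3, 130 for CCL2, 105 for IL6, 13.1 for CXCL1 and 1.13 for ICAM1. Of the neighbours in this order, RELB and TNFAIP3 overlapped between samples and the others did not. In Caki2+PBRM1 NFKBIA (544) and BIRC3 (381) again stood first and second, and IL6 (124), CXCL1 (22.0) and ICAM1 (0.3) were again the lowest. NFKB2 (370.0) and LIF (347) overlapped there, and so did TNFAIP3 (175), RELB (175) and CCL2 (174). On this scale CCL2 lay below TNFAIP3 in every Caki2+Vector sample and overlapped it in Caki2+PBRM1.

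The rest of the pathway was described from lists of 131 other genes, of which 95 passed the filter. Of these, 20 were called higher (21.1%) and 17 lower (17.9%), with a median log2 fold change of 0.03, and 58 did not pass. Over all 13303 tested genes the shares were 16.2% and 13.0%, and the list counts that follow stand beside these. The lists too were chosen with earlier results of these data known. Without Caki2+Vector A, 20 of the 95 were called higher and 21 lower, beside 2252 higher and 1918 lower of all 13303 tested genes. The lower calls among the 95 then included NFKBIB, TRAF2, MYD88, LTBR and C3 (limma adjusted p = 0.00234 to 0.0423), none of which passed over all 6 samples. They are named after their values were seen. Of 23 genes of the IKK complex and upstream signaling, all tested, 2 were higher and 1 lower. RIPK1, the adaptor kinase of TNF receptor signaling, rose from 320.1 ± 8.9 to 373.8 ± 15.0 (SD, n = 3; log2 fold change 0.22, limma adjusted p = 0.0162), and TAB2, which joins the kinase TAK1 to ubiquitin chains, rose from 887.9 ± 27.7 to 1001.9 ± 31.5 (0.17, adjusted p = 0.00866). Both calls were lost without Caki2+PBRM1 C (adjusted p = 0.0982 and 0.0768), and that of RIPK1 also without Caki2+PBRM1 B (0.0542) or Caki2+Vector B (0.056). IRAK1, the kinase that carries IL-1 and Toll-like receptor signals, fell from 1684.3 ± 162.5 to 1351.1 ± 28.2 (-0.31, adjusted p = 8.71e-05). Among the 6 IkB genes only NFKBIZ, which encodes a nuclear IkB that promotes cytokine transcription, was called over all 6 samples, and it was higher (log2 fold change 0.22, adjusted p = 0.00213). NFKBIB was just short of the threshold (limma adjusted p = 0.0541). It was called lower by edgeR (0.0473), with the replicate letter as a block (0.0485) and without Caki2+Vector A (0.00234), but not by DESeq2 (0.159).

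The list of feedback inhibitors and survival genes, TNFAIP3 and BIRC3 included, had 5 higher and 4 lower among its 12 tested genes. CYLD, a deubiquitinase that restrains IKK, rose from 185.7 ± 10.4 to 230.4 ± 22.5 (SD, n = 3; log2 fold change 0.31, limma adjusted p = 0.0111), a call lost without Caki2+Vector B, Caki2+PBRM1 A or Caki2+PBRM1 C (adjusted p = 0.0597 to 0.0796). The early response gene IER3 rose from 945.4 ± 67.4 to 1114.9 ± 40.2 (0.24, adjusted p = 0.000839). TNIP2, which binds A20, fell from 381.8 ± 28.0 to 308.6 ± 10.6 (-0.30, adjusted p = 0.00195). TRAF1, an adaptor induced by NF-kB, fell by 0.34 on the log2 scale (adjusted p = 0.0487), and this dropped to 0.21 in size without Caki2+PBRM1 A (adjusted p = 0.281), with the call also lost without Caki2+Vector B (0.178) or Caki2+PBRM1 B (0.0526). The other 4 called genes of this list are named after their values were seen. TNIP3, which also binds A20, was at 20.8, 22.7 and 19.2 in Caki2+Vector and at 44.4, 34.7 and 32.7 in Caki2+PBRM1 (0.80, adjusted p = 0.00499), and OTULIN, a deubiquitinase of linear chains, rose from 521.8 ± 4.7 to 615.1 ± 18.5 (SD, n = 3; adjusted p = 0.0022). SOD2, a mitochondrial antioxidant enzyme induced by NF-kB, fell from 826.9 ± 11.1 to 695.2 ± 30.4 (SD, n = 3; adjusted p = 0.000572). CFLAR, an inhibitor of caspase activation, fell by 0.105 on the log2 scale (adjusted p = 0.0463), a call lost without any one sample other than Caki2+Vector C (adjusted p = 0.0646 to 0.17). Genes of this list were thus called in both directions: TNFAIP3, CYLD, IER3, TNIP3 and OTULIN higher, and TNIP2, TRAF1, SOD2 and CFLAR lower.

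Of 14 tested genes for receptors that activate the pathway, 4 were higher and 1 lower. TLR3, the receptor for double-stranded RNA, was at 122.1, 102.0 and 105.5 in Caki2+Vector and at 205.8, 191.1 and 174.6 in Caki2+PBRM1 (log2 fold change 0.79, SE 0.105, limma adjusted p = 8.79e-07). TLR4, the receptor for lipopolysaccharide, rose from 179.7 ± 11.7 to 231.0 ± 31.5 (SD, n = 3; 0.35, adjusted p = 0.00581), a call lost without Caki2+PBRM1 A (0.25, adjusted p = 0.0871). The other 3 called receptors are named after their values were seen. TLR1, which pairs with TLR2, was at 36.9, 26.5 and 22.8 in Caki2+Vector and at 62.8, 41.8 and 41.1 in Caki2+PBRM1 (0.74, adjusted p = 0.00821; 0.54 and 0.101 without Caki2+PBRM1 A). IL1R1, the IL-1 receptor, was at 19.9, 22.7 and 12.0 and at 26.0, 32.0 and 30.2 in these groups (0.705, adjusted p = 0.0318). Its value dropped to 0.45 without Caki2+Vector C (adjusted p = 0.18), and the call was also lost without Caki2+PBRM1 B (0.117) or Caki2+PBRM1 C (0.101). TNFRSF1B, the second TNF receptor, was the one that fell. It was at 21.8, 36.8 and 32.4 in Caki2+Vector and at 16.2, 14.2 and 10.9 in Caki2+PBRM1 (log2 fold change -1.07, adjusted p = 0.00206). The ligands that start the response were scarce, and none of the 3 tested passed. TNF was at 20.8, 20.8 and 24.0 in Caki2+Vector and at 30.3, 24.0 and 20.1 in Caki2+PBRM1 (0.16, adjusted p = 0.657). IL1B was at 0.0 to 1.2 in every sample. IL1A was below the filter, at 4.7, 3.8 and 2.4 in Caki2+Vector and at 9.7, 10.7 and 9.2 in Caki2+PBRM1, groups that did not overlap, and with no filter on low counts it was called higher (1.26, adjusted p = 0.0177, from 11 and 32 reads).

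**Figure D3:**
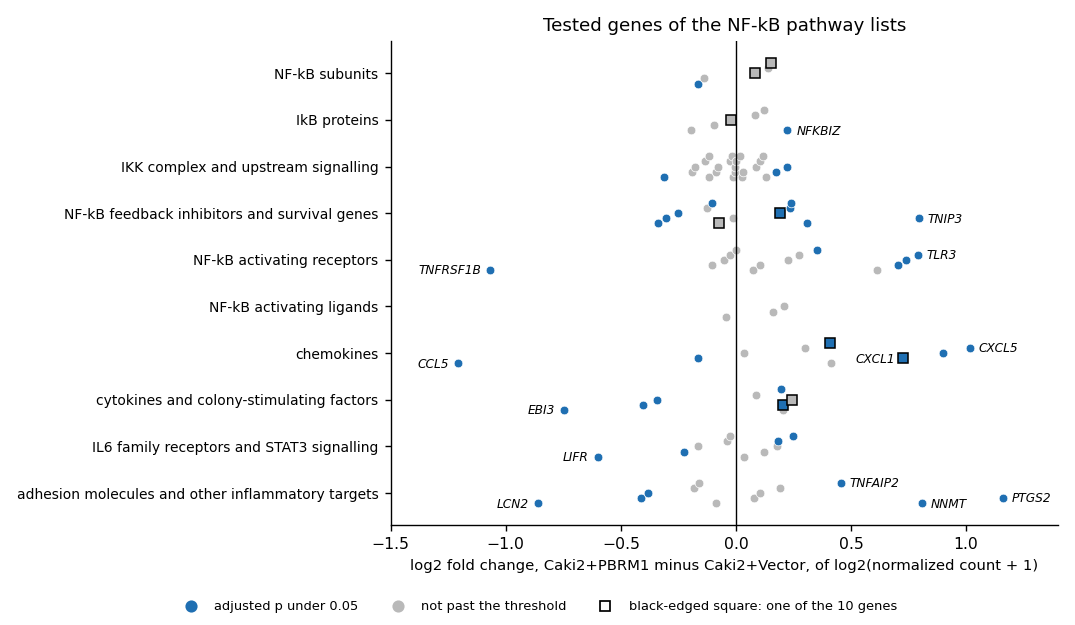
Log2 fold change (Caki2+PBRM1 minus Caki2+Vector, on the log2(normalized count + 1) scale) of each tested gene in 10 lists of the NF-kB pathway, 1 point per gene, blue where the limma adjusted p was under 0.05 and grey otherwise, with genes of the 10 described here as black-edged squares and vertical offsets for legibility only. Points of the IKK list lie close to 0, while those of the chemokine, receptor and target lists spread to both sides, from CCL5 at -1.21 to PTGS2 at 1.16.

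Among the 9 tested chemokine genes, CXCL1 and CCL2 included, 4 were higher and 2 lower. CXCL5, another neutrophil attractant of the CXCR2 group, was at 36.9, 22.7 and 36.0 in Caki2+Vector and at 72.6, 61.3 and 58.8 in Caki2+PBRM1 (log2 fold change 1.015, SE 0.189, limma adjusted p = 0.00012). CCL20, an attractant of CCR6-bearing lymphocytes that is named after its values were seen, was at 23.7, 18.9 and 18.0 in Caki2+Vector and at 34.7, 40.9 and 39.4 in Caki2+PBRM1 (0.90, adjusted p = 0.00166). CCL5, the T cell attractant RANTES, went the other way by more than any other tested gene of the lists. It was at 1061.2, 1082.7 and 1027.2 in Caki2+Vector and at 502.6, 472.0 and 402.0 in Caki2+PBRM1 (log2 fold change -1.21, SE 0.065, adjusted p = 5.86e-14). CX3CL1, a membrane-bound chemokine, fell from 737.5 ± 17.7 to 657.5 ± 13.3 (SD, n = 3; -0.17, adjusted p = 0.0198), a call lost without Caki2+Vector C, Caki2+PBRM1 A or Caki2+PBRM1 C (adjusted p = 0.0661 to 0.0821). Summed over the 18 chemokine genes of the list, the normalized count ran from 2064.7 to 2115.3 across Caki2+Vector and from 1462.9 to 1558.7 across Caki2+PBRM1. The sum was thus lower although 4 of the genes rose, with CCL5 the most abundant of them in Caki2+Vector.

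Among the 8 tested cytokine and colony-stimulating factor genes, LIF and IL6 included, 2 were higher and 3 lower. CSF1, the macrophage growth factor, rose from 1629.7 ± 106.9 to 1863.2 ± 42.3 (SD, n = 3; log2 fold change 0.195, limma adjusted p = 0.00179). IL32, an inducer of other cytokines, fell from 729.7 ± 32.8 to 551.2 ± 15.4 (-0.40, adjusted p = 2.2e-06). IL18, a cytokine of the IL-1 family, fell from 916.3 ± 88.8 to 719.8 ± 26.9 (-0.34, adjusted p = 6.53e-05). EBI3, a subunit of IL-27 and IL-35 that is named after its values were seen, fell from 45.6 ± 4.3 to 26.8 ± 3.2 (-0.75, adjusted p = 0.00343). LIF thus rose beside CSF1 while IL18, IL32 and EBI3 fell, and each of these 5 calls held when any one sample was left out.

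**Figure D4:**
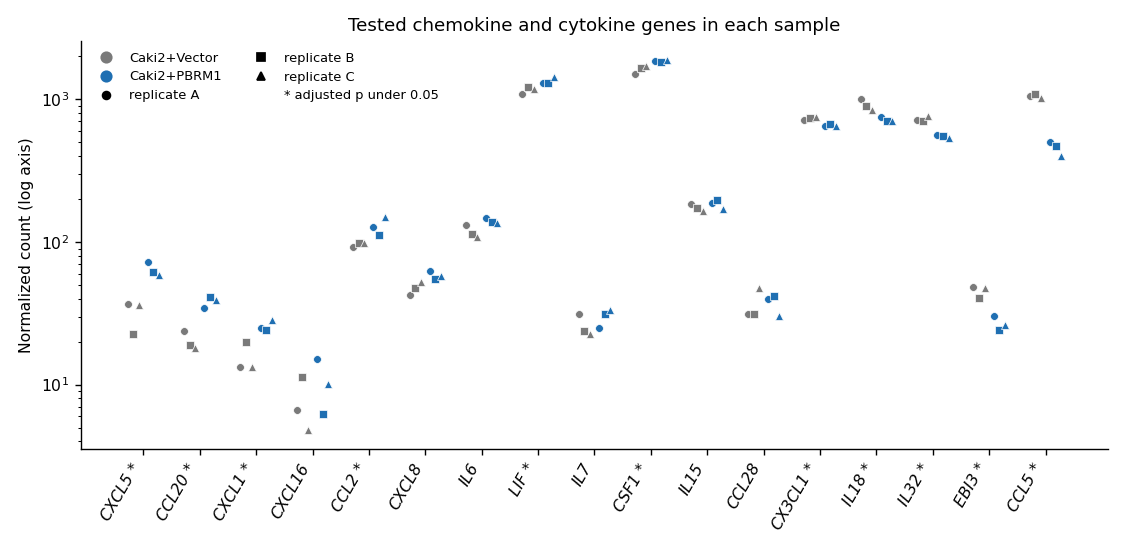
Normalized count (log axis) of each tested chemokine and cytokine gene in the 3 Caki2+Vector samples (grey) and the 3 Caki2+PBRM1 samples (blue), replicate letters as symbols, genes ordered by log2 fold change from the most positive on the left, with a star where the limma adjusted p was under 0.05. CXCL5, CCL20 and CXCL1 stand at the left with no count above 72.6, and CCL5 at the right goes from 1027.2 or more to 502.6 or less.

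The receptors for LIF and IL6 were also measured. IL6ST, the signal-transducing chain shared by the family, was at 3864.4, 3781.0 and 4029.5 in Caki2+Vector and at 4619.7, 4516.2 and 4737.0 in Caki2+PBRM1 (log2 fold change 0.25, limma adjusted p = 4.57e-06). LIFR, the chain that binds LIF, was at 381.5, 343.0 and 373.9 in Caki2+Vector and at 235.0, 240.0 and 247.6 in Caki2+PBRM1 (-0.60, adjusted p = 2.78e-07). The shared chain was therefore higher and the LIF-binding chain lower where LIF itself was higher. OSMR, the oncostatin M receptor, fell from 1235.0 ± 14.6 to 1056.3 ± 18.7 (SD, n = 3; -0.225, adjusted p = 0.000359), and STAT3, the transcription factor downstream, rose from 1264.5 ± 78.5 to 1434.9 ± 31.6 (0.18, adjusted p = 0.00407). In all, 2 of the 10 tested genes of this list were higher and 2 lower. IL6R, the chain that binds IL6, did not pass the test, at 176.3 ± 17.3 in Caki2+Vector and 156.7 ± 11.3 in Caki2+PBRM1 (limma adjusted p = 0.22). Neither did SOCS3, at 148.4 ± 16.9 and 145.9 ± 19.6 (adjusted p = 0.883). JAK1, a kinase of this pathway that most cells use, was listed at 0.0 to 2.7, so its row was not taken as a level. The receptors for CXCL1 and CCL2, CXCR2 and CCR2, were at 0.0 in every sample. Of the integrin chains that bind ICAM1, ITGB2 was at 30.3, 33.1 and 16.8 in Caki2+Vector and at 40.1, 34.7 and 51.2 in Caki2+PBRM1 (0.67, adjusted p = 0.029). It is named after its values were seen, and its call was lost without Caki2+Vector C (0.38, adjusted p = 0.198), Caki2+PBRM1 A (0.0743) or Caki2+PBRM1 C (0.174). ITGAM, a more abundant chain, did not pass the test, at 190.7 ± 29.2 in Caki2+Vector and 194.0 ± 5.0 in Caki2+PBRM1 (limma adjusted p = 0.824). ITGAL, at 1.9 to 8.7, was below the filter. Of the 8 listed receptors for the ligands and ICAM1, 2 were tested and 1 was called higher.

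Of the other inflammatory targets, 3 of 12 tested genes were higher and 3 lower. TNFAIP2, a gene first found as induced by TNF, was at 1252.5, 1320.8 and 1398.7 in Caki2+Vector and at 1819.7, 1814.1 and 1810.4 in Caki2+PBRM1 (log2 fold change 0.46, limma adjusted p = 4.08e-09). NNMT, nicotinamide N-methyltransferase, rose from 119.8 ± 8.7 to 210.4 ± 6.9 (SD, n = 3; 0.81, adjusted p = 1.35e-07). PTX3, a soluble pattern recognition protein, fell from 390.6 ± 19.5 to 300.2 ± 22.7 (-0.38, adjusted p = 0.000208), and CD83, a surface protein of activated cells, fell from 163.6 ± 19.7 to 122.1 ± 2.8 (-0.41, adjusted p = 0.00358). The remaining pair is named after its values were seen. PTGS2, the inducible cyclooxygenase, was at 6.6, 6.6 and 8.4 in Caki2+Vector and at 19.5, 11.6 and 22.7 in Caki2+PBRM1 (1.16, adjusted p = 0.00736; 0.97 and 0.0792 without Caki2+PBRM1 C). LCN2, a siderophore-binding protein, was at 17.0, 19.8 and 19.2 and at 6.5, 10.7 and 13.4 (-0.86, adjusted p = 0.0312). The LCN2 call held without Caki2+Vector A or Caki2+PBRM1 C and was lost without any one of the other 4 samples (adjusted p = 0.0533 to 0.161).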

How the data were processed

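Poly(A) RNA of 3 Caki2+Vector and 3 Caki2+PBRM1 samples was sequenced. After trimming of adapters and removal of low-quality and rRNA reads, the authors aligned the rest to hg19 with STAR, counted reads on 25369 genes with htseq-count and normalized with DESeq2; the versions are not given in the sources used here. The deposited signal in each file is a normalized count per gene, that is, reads divided by a size factor per sample (0.8343 to 1.1915). All values (100%) came out as whole reads (within 0.02), which gave the depth and were used by the count tests.

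The 13303 genes at or above a normalized count of 10 in 3 or more samples entered the main test, limma 3.58.1 (R 4.3.3) on log2(normalized count + 1), with trended and robust variance moderation, Benjamini-Hochberg adjustment over those genes and a threshold of 0.05 on the adjusted p. Fold changes on this scale understate the change of low genes. An exact two-sided permutation test of the normalized counts stands beside single genes. Alternatives were pseudocounts of 0.5 and 4, no filter, at least 10 counts in every sample, TMM, quantile normalization, edgeR 4.0.16, DESeq2 1.42.0 and voom on the recovered reads, a replicate block, and each sample left out. The limma and edgeR scripts were tested on simulated data. Chi-square between replicates used genes whose reads in the pair summed to 20 or more.

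The 10 genes and all lists were chosen with earlier results of these data known. Other genes named are, per list, the 2 with the largest rise and the 2 with the largest fall among called genes whose higher group averaged 50 or more, and TNF, IL1A, IL1B, CXCL2, CXCL3, CXCL8, NFKB1, RELA and REL whatever their values; marker genes and any other gene were picked for the description. Coordinates and exon lengths (canonical transcript) are from GENCODE on GRCh37, and promoter windows from RefSeq on GRCh38.p14, matched by symbol.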

Additional observations from a re-analysis of the deposited data

How the results depend on the processing

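The number of the 10 genes called higher was 4. It was 3 or 4 under the alternatives to the scaling, pseudocount, filter and test, except under DESeq2, where 2 were called, and it ran from 1 to 4 when each sample was left out in turn; none was called lower in any fit. Over all genes, 3886 were called in either direction, 2553 by DESeq2, and 2856 to 4170 with a sample left out. Among the 95 other pathway genes tested, 15 to 21 were higher and 12 to 19 lower under the alternatives, and 14 to 20 and 13 to 21 with a sample left out. No gene given with a log2 fold change changed direction in any fit. DESeq2 did not call CXCL1, CCL2, NFKB1, RIPK1, CYLD, TRAF1, CX3CL1, CFLAR, TLR1, IL1R1, LCN2, ITGB2 or LAPTM5, edgeR and voom did not call TRAF1, quantile normalization did not call CXCL1 or IL1R1, and the fit with no filter on low counts did not call TRAF1 or CFLAR. The cause of the differences was not tested.

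Same-lettered samples of the groups did not deviate together (Pearson r across genes -0.008 to 0.014), so the letters are not taken as pairs. With the replicate block, 4 of the 10 genes were called higher, the same 4 genes. Over all genes, 2249 were then called higher and 4107 in either direction. Genes with few reads are the limit: the SE of a difference was 0.083 at the median over all genes, against 0.251 for CXCL1, and 36 of the 131 other pathway genes, with ICAM1, were below the filter and stayed out of the main test.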
